A study of Mus musculus with 22 samples.

Results

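The 48 genes described here are mouse imprinted genes, taken by exact match of their symbols in the deposited table of 55335 genes, where every one of the 48 was found. The table covers 22 RNA-seq libraries of mouse embryos from B6D2F1 females mated with B6D2F1 males. In these embryos the histone variant H2A.Z was knocked down (KD) or left as control, and they were collected as 2-cell embryos, morulae and blastocysts. By the methods the females were superovulated, and the zygotes were cultured in vitro until harvest. For KD, zygotes received about 10 pL of mixed siRNAs against H2A.Z at 20 µM between 20 and 22 h after hCG injection, and the labels do not state what the control embryos received. The methods name controls without injection for quantitative PCR and are silent for these libraries, so whether KD and control also differ by the injection itself is open. There were 4 control and 3 KD libraries of 2-cell embryos (harvested at 43 to 44 h), 4 control and 3 KD libraries of morulae (78 h), and 4 control and 4 KD libraries of blastocysts (94 h). Each library pooled 15 whole embryos, and its polyA RNA was amplified by the Smart-seq2 protocol for 16 to 18 cycles and read as 150-bp pairs. Levels are FPKM, fragment counts set relative to transcript length and to the mapped total of the library. Being per length, they allow a rough comparison between genes, less so for very short genes and genes that share exons. The number of reads per library is not in the table, so the depth behind a value is unknown. Between 10143 and 12090 genes reached FPKM 1 in a library.

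Imprinted genes are transcribed mainly from the allele of a single parent, because DNA methylation laid down in the egg or sperm, or for some genes maternal H3K27me3, marks one parental copy and survives the reprogramming of the early embryo. Many of them act in opposite directions on fetal and placental growth, and they lie in clusters in which a control region and often a long noncoding RNA silence their neighbours. FPKM carry no allele information, so maternal and paternal expression below are background knowledge about each gene and were not measured. By that knowledge 30 of the 48 genes are paternally expressed, 17 are maternally expressed, and Gnas makes transcripts of both kinds.

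The labels were first checked on the targeted genes. H2afz, the main H2A.Z gene, measured 1244, 1236, 905 and 1178 FPKM in the 4 control libraries of 2-cell embryos and 415, 139 and 112 in the 3 KD libraries. It measured 1158, 1336, 1511 and 1421 in control morulae and 30.3, 25.7 and 29.0 in KD morulae, and 2656, 2431, 1945 and 2055 in control blastocysts and 64.2, 67.2, 53.2 and 57.6 in KD blastocysts. Every KD library was below every control library of its stage, although the KD libraries of 2-cell embryos still held over 100 FPKM. In limma fits over all genes the log2 fold change of H2afz was -2.53 (adjusted p = 0.543) in 2-cell embryos, -5.41 (adjusted p = 9.71e-08) in morulae and -5.19 (adjusted p = 3.63e-08) in blastocysts. The paralogue H2afv went from 96.8 to 118 in control 2-cell libraries against 83.7 to 97.6 in KD ones (adjusted p = 0.840), and fell by 2.93 on the log2 scale in morulae and by 1.86 in blastocysts. Here and below a gene passed when its Benjamini-Hochberg adjusted p was under 0.05, and a DEG also had an absolute log2 fold change above 1, on log2(FPKM + 1) after scaling each library. For the fits only, FPKM were divided by a scaling factor per library. Values, and whether groups overlap, are given in FPKM before that scaling, so an overlap can differ on the scale of the fits.

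Markers of the cell types that embryos of these stages can hold were read as a check of the stage labels. The summed FPKM of 12 trophectoderm markers was 3346, 3538, 2861 and 2489 in control blastocysts and 1138, 1419, 1269 and 1144 in KD blastocysts, with every KD library below every control library and no marker at 0 in any blastocyst library. Dppa1 was the most abundant in 3 control libraries and Krt18 in the remaining control library and the 4 KD libraries. Of the 12, all tested in blastocysts, Krt18, Elf5, Id2 and Dppa1 fell and Tfap2c, Tead4 and Aqp3 rose, where 19.8% of all genes were lower and 16.7% higher (median log2 fold change -0.48, all genes 0.00). In morulae the same sum was 236, 200.4, 200.3 and 222 in control and 185, 160.3 and 222 in KD libraries. Only Atp1b1 of 10 tested passed there, and it rose (adjusted p = 0.0280), with Elf5 at 0 in control replicate 2 and KD replicate 2. The Atp1b1 call was lost without control replicates 2, 7 or 8 and without KD replicates 1 or 2, with adjusted p up to 0.125, and also with no filter on low FPKM, FPKM as deposited or the replicate block. With no filter Aqp3 did not pass in blastocysts (adjusted p = 0.0939). The summed FPKM of 8 epiblast markers was 218, 223, 260.0 and 272 in control morulae and 109.8, 110.1 and 172 in KD morulae, again without overlap, and Sox2 was at 0 in KD replicate 1. After division by the scaling factors, 1.19 for control replicate 1 and 0.930 for KD replicate 6, these sums overlapped. The most abundant epiblast marker was Nanog in 3 of 4 control morula libraries and Tdgf1 in the 3 KD libraries. Nanog (log2 fold change -2.23) and Gdf3 (-0.69) fell in KD morulae and Klf2 rose (0.71), of 6 tested, where 9.04% of all genes were lower and 4.23% higher (median -0.31, all genes 0.02). Leaving out control replicate 2 or 8, or KD replicate 1 or 2, ended the calls of Gdf3 and Klf2, as did control replicate 7 for Gdf3, with adjusted p up to 0.10001 for Gdf3 and 0.111 for Klf2. With no filter none of the 3 passed in morulae (Nanog at adjusted p = 0.0719), and Klf2 also failed with FPKM as deposited or the replicate block.

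In blastocysts the epiblast sums were 234, 258, 324 and 208 in control and 165, 176, 302 and 216 in KD libraries, which overlapped, with Nanog the most abundant in each, none at 0, and Tdgf1 and Gdf3 lower among 6 tested (all genes 19.8%). The 7 markers of 2-cell embryos found in the table, of 8 listed, summed to 14.5, 11.7, 7.17 and 9.29 in control and 22.3, 33.1, 22.2 and 61.6 in KD blastocysts, without overlap, and Gm5662 was the most abundant in each. All 3 of them that were tested, Zfp352, Tdpoz1 and Gm5662, rose in KD blastocysts, where 16.7% of all genes were higher. Zfp352 met the filter only through the KD libraries, and the trophectoderm marker Elf5 only through 3 control libraries. The call of Tdpoz1 was lost without control replicates 1 or 4 and without KD replicates 4, 5 or 6 (adjusted p up to 0.0872) and with FPKM as deposited, and with no filter neither Tdpoz1 nor Gm5662 (0.0785) passed. Zscan4d was at 0 in control replicates 4 and 5, and Zscan4c and Zscan4f in control replicate 5. None of 8 primitive endoderm markers passed in a KD comparison (2 tested at each stage). Their sum was 109.7, 141, 179 and 135 in control and 165, 135, 184 and 167 in KD blastocysts, most of it Dab2, and Foxa2 was at 0 in every library. None of 8 oocyte markers passed in a KD comparison (7, 2 and 1 tested), and none of 7 tested markers of 2-cell embryos passed in 2-cell embryos. The 8 cumulus and granulosa cell markers summed to at most 0.160 FPKM in any library and none was tested. The blastocyst sums of trophectoderm and 2-cell markers and the morula sum of epiblast markers move with the KD group in the same libraries as the imprinted genes below, and their part in those results was not tested. In pools of whole embryos fewer cells of a type and less RNA per cell cannot be told apart.

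Of the 48 imprinted genes, 30 (62.5%) reached FPKM 1 in at least 1 library, against 17814 of 55335 genes of the table (32.2%), and 16 reached FPKM 10. The table holds many types of gene, with 13853 genes at 0 in every library, while most of the 48 are protein-coding. The shares therefore do not compare like sets of genes. The 18 that stayed under 1 FPKM in all 22 libraries were H19, Ppp1r9a and Trappc9 among the maternally expressed genes and 15 paternally expressed ones, namely Igf2, Peg3, Peg10, Peg12, Peg13, Dlk1, Rtl1, Kcnq1ot1, Plagl1, Nnat, Ndn, Magel2, Mkrn3, Nap1l5 and Dio3. Some of these are among the most abundant imprinted RNAs of the later fetus and placenta, and here they were at or near the bottom of the scale. A gene entered a limma fit when 3 or more libraries of the comparison had FPKM 1 or higher, which 27 of the 48 met in at least 1 KD comparison and 15 met in all 3. Airn, Zim1 and Zdbf2 reached FPKM 1 in a library without meeting that filter. The counts below describe the genes tested and not all 48. Of a gene, not tested means below that it did not meet this filter, and the alternative with no filter fitted most of these genes too.

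In control 2-cell embryos the 5 highest means were Snurf (50.2 FPKM, SD 4.38, n = 4), Phlda2 (48.6, SD 12.7), Mcts2 (42.2, SD 8.03), Snrpn (38.4, SD 4.42) and Nap1l4 (36.6, SD 2.61). The libraries of each gene overlapped those of the next in that order, so the order there is not sharp. In KD 2-cell embryos it was Phlda2, Mcts2, Snurf, Nap1l4 and Snrpn. In control morulae Snurf (207, SD 8.12) and Snrpn (169, SD 9.73) stood apart from the next, Mcts2 (44.1, SD 2.72) and Nap1l4 (26.0, SD 3.69). Snurf has only 216 exonic bases, all of them shared with Snrpn, so in each of these orders the pair stands for a single locus. In control blastocysts the order was Snurf, Snrpn, Mcts2, Commd1 and Nap1l4, with the libraries of Snurf and Snrpn overlapping and both above the 65.8 FPKM of the highest Mcts2 library. KD blastocysts had Impact (33.2, SD 2.94, n = 4) in the place that Commd1 held among the controls. A mean of at least 1 FPKM was reached by 22 of the 48 genes in control 2-cell embryos and 21 in KD ones, by 15 in control morulae and 20 in KD morulae, and by 19 in control and 21 in KD blastocysts.

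**Figure D1:**
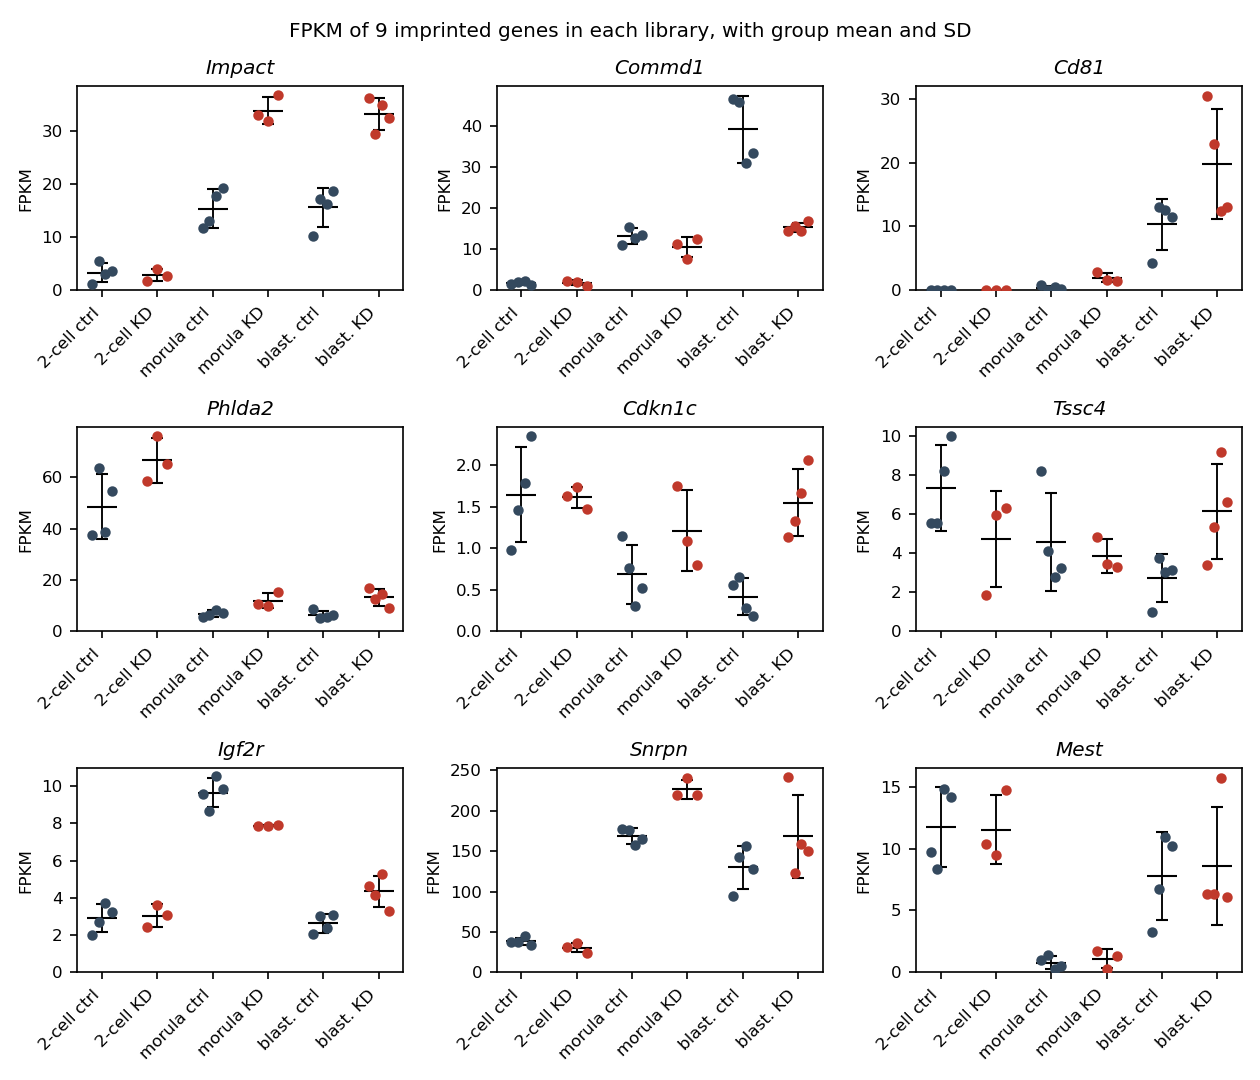
FPKM (vertical axis, linear) of 9 imprinted genes in each of the 22 libraries, by group along the horizontal axis, with the group mean and SD. Impact lies between 31.9 and 36.7 FPKM in the KD morulae, above every control morula library, and Commd1 between 14.5 and 16.8 in the KD blastocysts, below every control blastocyst library.

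In 2-cell embryos 21 imprinted genes were tested between KD and control and none passed in limma, as none of the 12160 genes tested did (0 of all genes higher, 0 lower, 0 DEG higher and 0 DEG lower, each 0%). The targeted gene H2afz did not pass in that fit either, although every KD library was below every control. The count therefore does not show an absence of change. At an unadjusted p under 0.05 there were 2 imprinted genes, Phlda2 and Jade1, and 701 genes in all, and the smallest adjusted p of an imprinted gene was 0.828. The median log2 fold change was 0.05 over the imprinted genes and 0.00 over all genes. In morulae 5 of 19 imprinted genes tested were higher in KD embryos, which is 26.3%, against 4.23% of 10989 genes, and 0 were lower, against 9.04%. The 5 were Impact, Cd81, Phlda2, Snrpn and Snurf, of which Snrpn and Snurf are a single locus and Cd81 met the filter only through the KD libraries. Among genes with FPKM 1 or higher in at least 1 library of each group, a count added after seeing the data, 4 of 18 imprinted genes and 4.14% of 10588 genes were higher. The count of 5 was 1 of 44 with no filter on low FPKM (all genes 0.392%), 3 with the replicate block (5.87%), 5 with the range of replicate numbers as covariate (7.07%), 5 with FPKM as deposited (2.56%) and 1 to 4 without 1 library, where 5.88% to 22.2% of the imprinted genes tested and 1.30% to 5.22% of all genes were higher. At an unadjusted p under 0.05 there were 7 imprinted genes and 3352 genes in all. Impact and Cd81 were DEGs, where 0.992% of all genes were higher DEGs and 2.53% lower ones. The median was -0.02 over the 19 and 0.02 over all genes. With FPKM as deposited, without further scaling, the median over all genes in morulae was -0.09, a shift of -0.10, and 281 genes were higher and 1553 lower in place of 465 and 993. The 5 imprinted genes named above passed in that fit too.

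In blastocysts 6 of 22 imprinted genes tested were higher in KD embryos (27.3%), against 16.7% of 11828 genes, and 2 were lower (9.09%), against 19.8%. The 6 were Impact, Cdkn1c, Phlda2, Tssc4, Blcap and Igf2r, and the 2 were Commd1 and Mcts2. Cdkn1c met the filter only through the KD libraries. Among genes with FPKM 1 or higher in at least 1 library of each group, 5 of 21 imprinted genes were higher and 2 lower, where 15.0% of 11123 genes were higher and 18.3% lower. Without 1 library 4 to 7 imprinted genes were higher (12.9% to 16.1% of all genes). With no filter on low FPKM 4 of 47 were higher (8.51%, all genes 5.21%), namely Impact, Cdkn1c, Igf2r and Grb10. In that fit 3 were lower (6.38%, all genes 5.98%), namely Commd1, Igf2 and Plagl1. In the fit with the filter Impact and Commd1 were DEGs, beside 6.06% of all genes as higher DEGs and 7.69% as lower ones. The median log2 fold change was 0.21 over the 22 and 0.00 over all genes. Of the 10 maternally expressed genes tested, 5 rose and 1 fell (median 0.65), and of the 11 paternally expressed genes 1 rose and 1 fell (median 0.14). No test compared the 2 kinds, and whether each gene is expressed from a single allele in these embryos was not measured. Among the 5 maternally expressed genes that rose, Phlda2, Cdkn1c and Tssc4 lie in the same domain of chromosome 7. In morulae, where 4.23% of all genes were higher, 2 of 9 maternally expressed genes were higher (median -0.02) and 3 of 9 paternally expressed genes (median 0.27). Those 3 were Impact, Snrpn and Snurf, of which Snrpn and Snurf are a single locus. The p-values measure the spread between these libraries, and nothing in the labels says that the libraries come from separate litters or cultures.

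**Figure D2:**
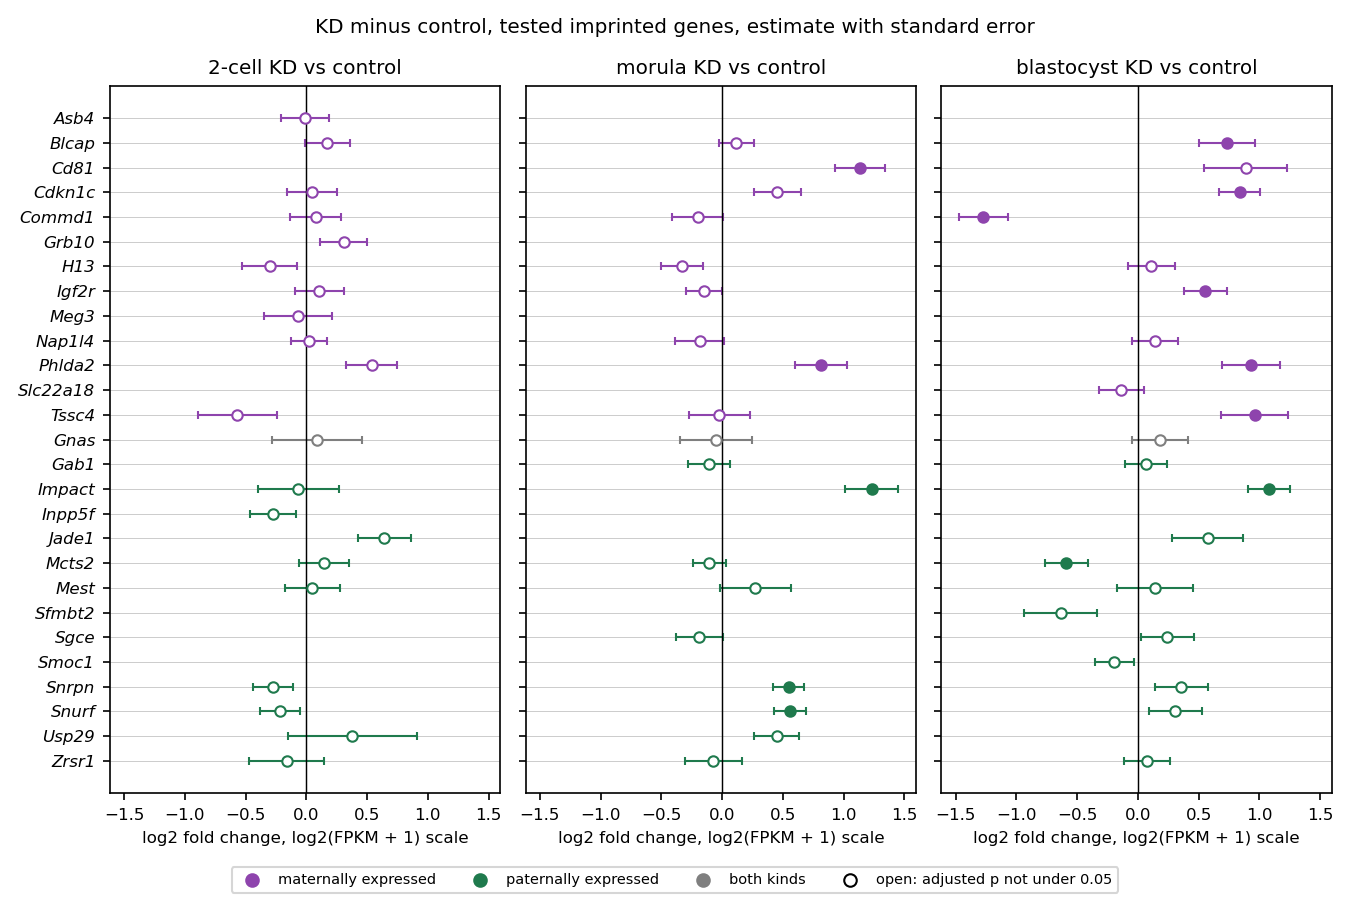
Log2 fold change with its standard error for each imprinted gene tested, KD minus control, in 2-cell embryos, morulae and blastocysts, with filled points for an adjusted p under 0.05. No point is filled in 2-cell embryos, 5 are filled to the right of 0 in morulae, and in blastocysts 6 are filled to the right and 2, Commd1 and Mcts2, to the left.

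Impact, a paternally expressed gene whose protein restrains the kinase Gcn2 in the response to amino acid shortage, rose in both later stages. Impact (ENSMUSG00000024423.6) measured 11.7, 13.02, 17.7 and 19.2 FPKM in control morulae and 33.0, 31.9 and 36.7 in KD morulae. In blastocysts it measured 10.3, 17.2, 16.3 and 18.7 in control and 36.2, 29.5, 34.9 and 32.5 in KD libraries. At both stages the lowest KD library was far above the highest control library, and the KD libraries of morulae and blastocysts had much the same level. The mean was 2.20-fold the control mean in morulae (log2 fold change 1.23, SE 0.22, adjusted p = 0.00794) and 2.13-fold in blastocysts (log2 fold change 1.08, SE 0.17, adjusted p = 0.000620). It passed without any 1 of the 7 morula libraries (adjusted p 0.00809 to 0.0317) and any 1 of the 8 blastocyst libraries. With no filter on low FPKM, 32900 genes were tested in morulae and the adjusted p was 0.0635. In 2-cell embryos the values were 1.21, 5.46, 3.04 and 3.60 in control and 1.77, 3.97 and 2.77 in KD libraries, and these overlapped (log2 fold change -0.07, SE 0.33, adjusted p = 0.981). Among controls Impact rose from the 2-cell embryo to the morula by a log2 fold change of 1.99 (SE 0.31, adjusted p = 7.16e-05).

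The distal chromosome 7 domain holds 6 maternally expressed genes of the list around the gene Kcnq1 and the paternally expressed noncoding RNA Kcnq1ot1, whose transcription silences the domain on the paternal chromosome. In the mm10 annotation these 7 genes run from Cd81 at chr7:143052739-143067934 through Tssc4, Kcnq1ot1, Cdkn1c, Slc22a18 and Phlda2 to Nap1l4 at chr7:143513579-143549106. Cd81 and Phlda2 rose in KD morulae and Phlda2, Cdkn1c and Tssc4 in KD blastocysts, where 4.23% and 16.7% of all genes were higher. Cd81 in morulae and Cdkn1c in blastocysts met the filter only through the KD libraries. With no filter Cdkn1c passed in blastocysts, while Cd81 (adjusted p = 0.0637), Phlda2 (0.137 in morulae and 0.0567 in blastocysts) and Tssc4 (0.0872) did not, so a change of the domain as a whole is not shown. Nap1l4 did not pass at any of the 3 stages, and Slc22a18, tested only in blastocysts, did not pass there. Kcnq1ot1 stayed under the filter, with 0.216, 0.118, 0.128 and 0.144 FPKM in control and 0.185, 0.199 and 0.211 in KD morulae and 0.203, 0.198, 0.177 and 0.260 in control and 0.121, 0.172, 0.240 and 0.110 in KD blastocysts. Its groups overlapped at both stages. With no filter its log2 fold change was 0.08 in morulae (adjusted p = 0.343) and -0.06 in blastocysts (adjusted p = 0.464).

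Phlda2, which restrains growth of the placenta, had the most abundant RNA of the domain in 2-cell embryos. Its values there were 37.4, 63.5, 38.7 and 54.8 FPKM in control and 58.7, 76.1 and 65.1 in KD libraries. In morulae they were 5.71, 6.23, 8.44 and 7.29 in control and 10.7, 10.0 and 15.3 in KD libraries, and in blastocysts 8.77, 5.00, 5.58 and 6.38 and 16.9, 12.4, 14.4 and 9.003. The KD libraries lay above the controls without overlap in morulae and in blastocysts, where the lowest KD library was only just above control replicate 1, and the groups overlapped in 2-cell embryos. Dividing by the scaling factors, 1.02 for blastocyst KD replicate 6 and 0.908 for blastocyst control replicate 1, reverses the order of those libraries. Phlda2 rose in KD morulae (log2 fold change 0.81, SE 0.22, adjusted p = 0.0331) and in KD blastocysts (log2 fold change 0.93, SE 0.24, adjusted p = 0.0100), and in 2-cell embryos the log2 fold change was 0.54 (SE 0.21, adjusted p = 0.828). The morula call rested on nearly every library, since the adjusted p was 0.0531 without morula control replicate 1, 0.0747 without morula control replicate 2, 0.0521 without morula control replicate 8, 0.0644 without morula KD replicate 1, 0.0653 without morula KD replicate 2 and 0.0960 without morula KD replicate 6. With no filter on low FPKM it was 0.137 in morulae and 0.0567 in blastocysts, while all 8 fits without 1 blastocyst library passed.

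Cdkn1c, an inhibitor of cyclin-dependent kinases that slows growth, was low in all groups. It measured 0.556, 0.652, 0.275 and 0.182 FPKM in control blastocysts and 1.14, 1.33, 1.67 and 2.07 in KD blastocysts. All 4 KD libraries were above all 4 controls, and no control reached 1 FPKM. The KD mean was 3.72-fold the control mean (log2 fold change 0.84, SE 0.17, adjusted p = 0.00257), and the call passed without any 1 of the 8 libraries. Since Cdkn1c met the filter only through the KD libraries, in which it was higher, the filter itself depended on the difference. With no filter the adjusted p was 0.0179. In morulae the values were 1.15, 0.760, 0.310 and 0.526 in control and 1.76, 1.09 and 0.793 in KD libraries, which overlapped (adjusted p = 0.145), and in 2-cell embryos 0.983, 1.46, 1.79 and 2.35 and 1.63, 1.74 and 1.48. Of its exonic sequence, 30.7% lies opposite the antisense gene Gm44732, and the strand used in counting is not stated.

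Cd81, a tetraspanin of the cell surface, was close to 0 in 2-cell embryos, at 0.00364, 0, 0.0780 and 0.0929 FPKM in control and 0, 0 and 0.101 in KD libraries, and was not tested there. In morulae it measured 0.766, 0.0831, 0.582 and 0.212 in control and 2.84, 1.62 and 1.48 in KD libraries, so each KD library exceeded 1 FPKM and no control did. In blastocysts it measured 4.34, 12.98, 12.5 and 11.4 in control and 30.5, 22.9, 12.5 and 12.96 in KD libraries. In blastocysts KD replicates 1 and 4 were above all controls while KD replicates 5 and 6 lay within the upper end of the control range. Cd81 rose in KD morulae (4.83-fold by means, log2 fold change 1.14, SE 0.21, adjusted p = 0.00821). It met the filter only through the 3 KD libraries, so without any 1 of them it was not tested, and with no filter the adjusted p was 0.0637. In blastocysts it did not pass (log2 fold change 0.89, SE 0.34, adjusted p = 0.0615), other than without KD replicate 5 or 6 (adjusted p = 0.0323 and 0.0481). Among controls it rose by a log2 fold change of 2.87 (SE 0.26, adjusted p = 3.77e-06) from morula to blastocyst.

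Tssc4, next to Cd81 and tied to spliceosome assembly, measured 0.973, 3.75, 3.06 and 3.13 FPKM in control blastocysts and 3.41, 5.36, 9.22 and 6.64 in KD blastocysts. KD replicates 4, 5 and 6 were above all controls and KD replicate 1 was below control replicate 4, so the groups overlapped. It rose in KD blastocysts (log2 fold change 0.96, SE 0.27, adjusted p = 0.0162) and passed without any 1 of the 8 libraries, although not with no filter on low FPKM (adjusted p = 0.0872). The morula range was 2.77 to 8.23 in control and 3.27 to 4.85 in KD libraries (log2 fold change -0.02). Tssc4 lies inside Trpm5 on the opposite strand and shares 11.9% of its exonic bases with it. Nap1l4, a histone chaperone of the nucleosome assembly protein family, was abundant and even, with 15.6, 29.8, 31.5 and 31.7 FPKM in control and 26.3, 28.1, 30.3 and 30.6 in KD blastocysts. Only blastocyst control replicate 1 stood well below the rest, and the log2 fold changes from the first stage to the last were 0.02, -0.19 and 0.14 (adjusted p = 0.985, 0.561 and 0.594). Slc22a18, a membrane transporter, was at 0 in all 7 morula libraries and measured 0.576, 1.23, 1.54 and 0.582 in control and 0.535, 0.870, 1.20 and 0.495 in KD blastocysts, with overlap (log2 fold change -0.14, adjusted p = 0.600).

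**Figure D3:**
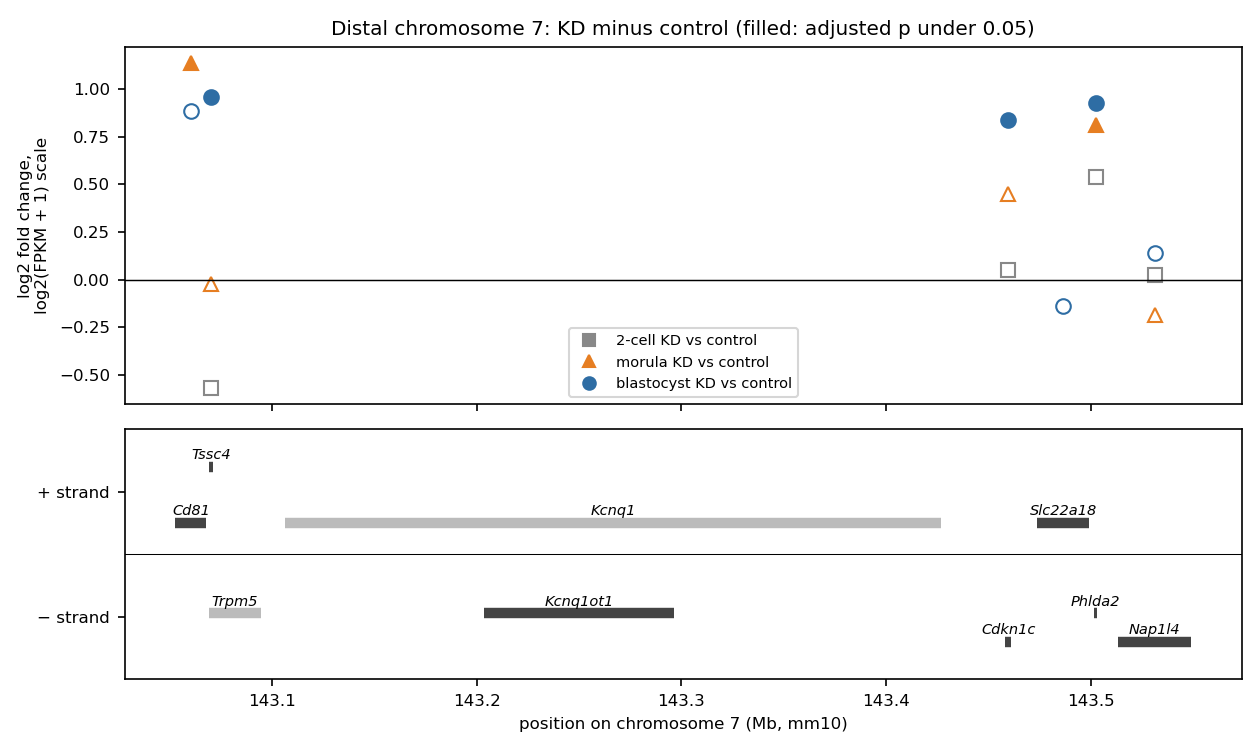
Log2 fold change, KD minus control, at the 3 stages (above, filled for an adjusted p under 0.05) over the position and strand of the genes of the distal chromosome 7 domain in megabases of mm10 (below, imprinted genes of the list in dark grey). Cd81 and Phlda2 are filled at 1.14 and 0.81 in morulae, Cdkn1c, Tssc4 and Phlda2 at 0.84, 0.96 and 0.93 in blastocysts, and no point is filled in 2-cell embryos.

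Snrpn encodes a core protein of the spliceosome, and Snurf is read from the upstream part of the same paternally expressed transcript. All exonic bases of Snurf lie within Snrpn in the annotation, so their FPKM share reads and the pair counts as 1 locus. All exonic bases of Snurf and 27.3% of those of Snrpn also lie in Gm38393, a protein-coding gene annotated on the same strand, so reads of these 3 genes cannot all be told apart. Snrpn measured 177, 177, 157 and 165 FPKM in control morulae and 220.0, 240.0 and 220.1 in KD morulae, and Snurf 210.4, 216, 197 and 206 and 269.7, 294 and 276. For both genes every KD morula library was above every control library, by a modest margin. Both rose in KD morulae (Snrpn log2 fold change 0.55, SE 0.13, adjusted p = 0.0213, and Snurf log2 fold change 0.56, SE 0.13, adjusted p = 0.0216). The adjusted p of Snrpn was 0.0581 without morula control replicate 7, 0.0569 without morula KD replicate 1, 0.106 without morula KD replicate 2 and 0.0524 without morula KD replicate 6. That of Snurf was 0.0565 without morula control replicate 7, 0.0550 without morula KD replicate 1, 0.103 without morula KD replicate 2 and 0.0555 without morula KD replicate 6. With no filter on low FPKM Snrpn was the only imprinted gene of morulae to pass (adjusted p = 0.0493) and Snurf was at 0.0548. With the replicate number as a block neither passed (adjusted p = 0.0733 for Snrpn and 0.0575 for Snurf). In blastocysts Snrpn measured 94.4, 143, 156 and 128 in control and 242, 123, 159 and 150.3 in KD libraries. KD replicate 1 was far above all other libraries, the rest overlapped, and the gene did not pass (log2 fold change 0.36, SE 0.22, adjusted p = 0.219). In 2-cell embryos it measured 37.2, 38.0, 44.5 and 34.0 in control and 31.2, 35.7 and 24.3 in KD libraries (log2 fold change -0.27, adjusted p = 0.828). The other genes of this cluster stayed near 0: the highest library of Ndn was at 0.210 FPKM, of Mkrn3 at 0.280, of Peg12 at 0.128 and of Magel2 at 0.0267.

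Commd1, a maternally expressed gene for a COMM domain protein of copper handling and NF-κB control, fell in KD blastocysts. Commd1 (ENSMUSG00000051355.18) measured 46.7, 45.9, 31.1 and 33.5 FPKM in control blastocysts and 14.5, 15.6, 14.5 and 16.8 in KD blastocysts. The 4 KD libraries lay in a narrow band at 0.391 times the control mean, below every control. It fell by 1.27 on the log2 scale (SE 0.20, adjusted p = 0.000510) and passed in each fit without 1 library (adjusted p 0.000409 to 0.00250). In morulae it measured 10.96, 15.5, 12.7 and 13.4 in control and 11.3, 7.72 and 12.5 in KD libraries. KD replicate 2 was below all controls and the other 2 KD libraries were not (log2 fold change -0.20, SE 0.21, adjusted p = 0.551). In 2-cell embryos it was low in both groups, 1.60, 1.89, 2.16 and 1.33 in control and 2.26, 2.11 and 1.16 in KD libraries. Among controls Commd1 rose at each step, by a log2 fold change of 2.35 (SE 0.18, adjusted p = 1.71e-07) into the morula and of 1.41 (SE 0.21, adjusted p = 0.000143) into the blastocyst. These comparisons share control libraries with the KD comparisons. The KD blastocysts thus held Commd1 at 15.4 FPKM (SD 1.07, n = 4), against 13.2 (SD 1.89, n = 4) in control morulae and 39.3 (SD 8.18, n = 4) in control blastocysts.

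The KD effect in blastocysts minus that in morulae was tested for 24 imprinted genes in a fit over 12727 genes, of which 11.7% passed. Commd1 was the only imprinted gene to pass (difference -1.11 on the log2 scale, SE 0.30, adjusted p = 0.0226). That call was lost without morula KD replicate 1 (adjusted p = 0.0573) and without morula KD replicate 6 (adjusted p = 0.0666), alternatives chosen after seeing the data, and passed without each of the other 13 libraries. Impact, Cd81, Phlda2, Snrpn, Cdkn1c, Tssc4 and Mcts2 did not pass this test, so their effects in the 2 stages are not shown to differ (differences -0.20, -0.30, 0.07, -0.23, 0.34, 0.94 and -0.52). Zrsr1, a paternally expressed retrogene related to the splicing factor gene Zrsr2, lies inside Commd1 on the opposite strand. It measured 2.06, 2.64, 1.44 and 1.63 FPKM in control and 2.40, 2.06, 2.34 and 1.49 in KD blastocysts. Its groups overlapped at all 3 stages, with log2 fold changes, in order of stage, of -0.16, -0.07 and 0.07 (adjusted p = 0.942, 0.863 and 0.801). The exons of the pair share 6.94% of the bases of Commd1 and 9.17% of those of Zrsr1.

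A similar arrangement holds on chromosome 2, where Mcts2, a paternally expressed retrogene copy of the translation factor gene Mcts1, lies within H13, a maternally expressed gene for a signal peptide peptidase. Mcts2 measured 65.8, 49.4, 56.4 and 62.2 FPKM in control and 40.5, 41.3, 37.1 and 34.1 in KD blastocysts, with all KD libraries below all controls. It fell by 0.59 on the log2 scale (SE 0.18, adjusted p = 0.0219). The adjusted p was 0.0547 without blastocyst control replicate 6 and 0.0696 without blastocyst KD replicate 6, and 0.0590 with no filter on low FPKM. Morula values were 43.1, 47.6, 44.5 and 41.2 in control and 38.7, 36.7 and 37.0 in KD libraries, again without overlap but without passing (log2 fold change -0.10, SE 0.14, adjusted p = 0.640). After division by the scaling factors, morula control replicate 1, with a factor of 1.19, fell below the KD libraries. The source gene Mcts1 measured 115, 139, 148 and 126 FPKM in control and 65.5, 67.3 and 44.8 in KD morulae, and 207, 115, 155 and 138 and 75.3, 87.8, 74.5 and 76.5 in blastocysts. No control overlapped a KD library at either stage, and it fell by 1.03 in morulae (adjusted p = 0.00781) and by 0.92 in blastocysts (adjusted p = 0.00574), with 0.0552 with no filter in morulae. The transcripts of Mcts1 and Mcts2 shared none of their 75-base stretches, so full-length reads of the pair can be told apart. The host H13 measured 7.35, 13.4, 15.9 and 10.6 in control and 9.57, 13.1, 14.7 and 12.4 in KD blastocysts and 13.3, 8.86, 10.7 and 12.1 and 8.05, 6.86 and 8.98 in morulae. The groups overlapped at both stages and H13 did not pass (log2 fold change -0.33 in morulae and 0.11 in blastocysts, adjusted p = 0.223 and 0.694).

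Blcap, maternally expressed and tied to cell death control, holds the paternally expressed Nnat in an intron. Blcap measured 2.77, 5.63, 6.41 and 3.69 FPKM in control and 8.77, 5.79, 11.7 and 6.72 in KD blastocysts. KD replicates 1, 5 and 6 were above all controls and KD replicate 4 was within the control range. Blcap rose (log2 fold change 0.73, SE 0.23, adjusted p = 0.0247). The adjusted p was 0.0689 without blastocyst control replicate 1, 0.0727 without blastocyst control replicate 6, 0.0628 without blastocyst KD replicate 1 and 0.0679 without blastocyst KD replicate 5, and 0.0893 with no filter on low FPKM. It measured 6.30 to 6.83 in control morulae and 5.90 to 7.49 in KD morulae (log2 fold change 0.12). Nnat, a neuronal membrane protein gene, was at most 0.301 FPKM in any library and did not meet the filter. With no filter its log2 fold change in KD blastocysts was -0.16 (adjusted p = 0.113).

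The growth factor Igf2, its clearance receptor Igf2r and their noncoding neighbours H19 and Airn form the classical opposing pair of imprinted growth control. Igf2r measured 2.04, 3.02, 2.40 and 3.10 FPKM in control blastocysts and 4.63, 4.16, 5.29 and 3.30 in KD blastocysts. Each KD library was above each control library, KD replicate 6 by the least. Igf2r rose in KD blastocysts (1.65-fold by means, log2 fold change 0.56, SE 0.18, adjusted p = 0.0260), but the adjusted p was 0.0626 without blastocyst control replicate 1, 0.0687 without blastocyst control replicate 5, 0.0627 without blastocyst KD replicate 1 and 0.0528 without blastocyst KD replicate 5. Igf2r measured 9.59, 8.65, 10.6 and 9.83 in control and 7.85, 7.88 and 7.89 in KD morulae, so that there each KD library was below each control, without passing (log2 fold change -0.15, SE 0.15, adjusted p = 0.538). After division by the scaling factors, 1.19 for morula control replicate 1 and 0.930 for morula KD replicate 6, these morula groups overlapped. The difference between the 2 stages was 0.67 on the log2 scale (SE 0.22, adjusted p = 0.0579) and passed with FPKM as deposited (0.81, adjusted p = 0.0281) and without blastocyst KD replicate 6 (adjusted p = 0.0346). In 2-cell embryos Igf2r was at 2.00, 2.68, 3.75 and 3.25 in control and 2.41, 3.64 and 3.09 in KD libraries, with overlap. Among controls it peaked in morulae, rising by a log2 fold change of 1.45 (SE 0.17, adjusted p = 5.49e-06) from the 2-cell embryo and falling by 1.63 (SE 0.16, adjusted p = 4.93e-06) into the blastocyst.

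Airn, the noncoding RNA that silences Igf2r on the paternal chromosome, measured 1.32, 0.686, 0.0334 and 0.0702 FPKM in control blastocysts and 0.0253, 0.0210, 0.00841 and 0.0958 in KD blastocysts. Control replicates 1 and 4 carried nearly all of its signal, the other 2 control libraries lay within the KD range, and Airn did not meet the filter. With no filter its log2 fold change in blastocysts was -0.49 (adjusted p = 0.321). In 2-cell embryos and morulae Airn stayed at or under 0.0473 FPKM in every library. Igf2 measured 0.333, 0.307, 0.311 and 0.265 FPKM in control and 0.0340, 0.0315, 0.125 and 0.207 in KD blastocysts. All 4 KD blastocyst libraries were below all 4 controls, at levels under the filter. With no filter, where 34540 genes were tested in blastocysts, the log2 fold change of Igf2 was -0.25 (adjusted p = 0.0370). The annotated gene Gm49394 holds 60.3% of the 75-base stretches of Igf2, so these reads cannot all be told apart. H19 was at 0 in all 14 libraries of 2-cell embryos and morulae and measured 0.0367, 0.0274, 0.0718 and 0 in control and 0.0191, 0.0362, 0 and 0 in KD blastocysts, which overlapped. Plagl1, a zinc finger factor that raises expression of other imprinted growth genes, measured 0.0871, 0.110, 0.0438 and 0.118 in control and 0.0237, 0.0184, 0.0415 and 0.00193 in KD blastocysts. All KD libraries were below all controls, narrowly so at the closest pair, and with no filter the log2 fold change was -0.09 (adjusted p = 0.0442).

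Igf2 was at 0.0273, 0.142, 0.0340 and 0.0104 FPKM in control and 0.0116, 0 and 0.0485 in KD 2-cell embryos, and at 0.0222, 0.00898, 0.0104 and 0.0182 and 0, 0.0518 and 0.0141 in morulae. Its groups overlapped at both stages. Plagl1 was at 0.334, 0.195, 0.0911 and 0.230 in control and 0.108, 0.0980 and 0.126 in KD 2-cell embryos, where control replicate 4 was lowest and the other 3 controls were above the KD libraries. In morulae it was at 0.0120, 0.00971, 0.00822 and 0 and 0.0503, 0.0159 and 0.0217, with the KD libraries above the controls at very low levels. Airn was at 0.0232, 0.0473, 0.0371 and 0.0130 in control and 0.0103, 0.0155 and 0.0265 in KD 2-cell embryos and at 0.0146, 0.0181, 0.00457 and 0.0114 and 0.0178, 0.00624 and 0.0189 in morulae, with overlap. Kcnq1ot1 was at 0.145, 0.138, 0.120 and 0.154 in control and 0.174, 0.150 and 0.114 in KD 2-cell embryos, again with overlap.

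Grb10, a maternally expressed adaptor that damps insulin and growth factor signalling, was highest in 2-cell embryos. It measured 1.27, 0.946, 1.52 and 1.26 FPKM in control and 1.23, 2.00 and 1.94 in KD 2-cell embryos, the only KD comparison in which it met the filter (log2 fold change 0.31, SE 0.19, adjusted p = 0.835). In blastocysts it measured 0.124, 0.110, 0.178 and 0.196 in control and 0.477, 0.344, 0.657 and 0.916 in KD libraries, and in morulae 0.434, 0.188, 0.328 and 0.249 and 0.375, 0.387 and 0.535. Every KD blastocyst library was above every control, all under 1 FPKM, while the groups overlapped in 2-cell embryos and morulae. With no filter the log2 fold change in blastocysts was 0.45 (adjusted p = 0.0373). Mest, a paternally expressed hydrolase of the alpha/beta fold, measured 3.26, 6.74, 10.99 and 10.2 FPKM in control and 6.31, 6.33, 15.8 and 6.06 in KD blastocysts, and 0.979, 1.39, 0.235 and 0.477 and 1.72, 0.249 and 1.33 in morulae. KD blastocyst replicate 5 was the highest library, the other 3 were nearly equal, and the groups overlapped at both stages (log2 fold change 0.27 in morulae and 0.14 in blastocysts, adjusted p = 0.553 and 0.765). In 2-cell embryos Mest measured 9.73, 8.33, 14.8 and 14.2 in control and 10.4, 9.51 and 14.7 in KD libraries. Of its exonic bases 23.1% lie opposite Copg2.

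On proximal chromosome 7 the paternally expressed zinc finger gene Peg3 shares a promoter region with the deubiquitinase gene Usp29. Peg3 measured 0.395, 0.327, 0.485 and 0.279 FPKM in control and 0.361, 0.647 and 0.528 in KD 2-cell embryos, 0.458, 0.113, 0.110 and 0.0575 and 0.432, 0.348 and 0.120 in morulae, and 0.241, 0.277, 0.162 and 0.252 and 0.105, 0.128, 0.267 and 0.0695 in blastocysts. The groups overlapped at each stage and Peg3 did not meet the filter. With no filter it did not pass (adjusted p = 0.846, 0.569 and 0.271 in order of stage). Usp29 measured 28.5, 8.11, 6.53 and 8.37 in control and 20.8, 21.9 and 5.29 in KD 2-cell embryos, where 1 control and 2 KD libraries were high and the others low (log2 fold change 0.38, SE 0.53, adjusted p = 0.916). In morulae it measured 0.875, 0.629, 0.724 and 1.15 and 1.28, 2.00 and 1.02, with overlap (log2 fold change 0.45, SE 0.18, adjusted p = 0.130). Their maternally expressed neighbour Zim1 was between 0.326 and 1.42 in KD and 0.491 and 0.854 in control 2-cell embryos and at most 0.00947 later. On chromosome 6, Sgce, a sarcoglycan, measured 2.42, 2.27, 2.85 and 3.21 in control and 1.58, 1.99 and 2.61 in KD morulae and 1.21, 0.440, 0.712 and 0.452 and 1.56, 0.595, 0.630 and 1.34 in blastocysts. The groups overlapped at both stages (adjusted p = 0.541 and 0.416). Its neighbour Peg10, a retrotransposon-derived gene needed in the placenta, was at 0.0882, 0.0239, 0.0160 and 0.0789 FPKM in control and 0.0255, 0.0432 and 0 in KD 2-cell embryos and at 0.0194, 0.00991, 0.0162 and 0.0407 and 0, 0.00761, 0.0288 and 0.0250 in blastocysts. The groups overlapped, and all morula libraries were at 0 other than control replicate 1 (0.00717). Asb4, maternally expressed, was seen in 2-cell embryos, at 6.99, 5.71, 9.27 and 7.72 in control and 7.30, 5.68 and 7.96 in KD libraries (log2 fold change -0.01, adjusted p = 0.996), and was at most 0.367 in any later library. Ppp1r9a, a neuronal actin-binding protein gene, reached 0.831 in KD morula replicate 1 at most.

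The domain on chromosome 12 holds the paternally expressed Dlk1, Rtl1 and Dio3 and the maternally expressed noncoding RNA Meg3. Meg3 measured 1.504, 1.47, 1.49 and 0.994 FPKM in control and 0.311, 2.16 and 1.57 in KD 2-cell embryos, and 0.0541, 0.515, 0.732 and 0.0989 in control and 0.102, 0.125, 0.157 and 0.0442 in KD blastocysts. In 2-cell embryos KD replicate 1 was the lowest and KD replicate 2 the highest of all libraries (log2 fold change -0.07, SE 0.28, adjusted p = 0.975). In blastocysts control replicates 4 and 5 were the highest and the other controls overlapped the KD libraries. In morulae Meg3 was near 0, at 0.00774, 0.00526, 0.0165 and 0.00716 in control and 0.106, 0.00215 and 0.0373 in KD libraries. Dlk1, a ligand of the Notch family, was at 0 in 18 of 22 libraries, and the others were 2-cell control replicate 1 (0.0230), morula control replicate 2 (0.00821) and replicate 8 (0.00431) and blastocyst KD replicate 5 (0.0158). Rtl1, a retrotransposon-derived placental gene, stayed at or under 0.0370 and Dio3, a thyroid hormone deiodinase, at or under 0.257.

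Sfmbt2, Gab1, Jade1 and Smoc1 are members whose imprinting rests on maternal H3K27me3 rather than on DNA methylation. None of the 4 passed in a KD comparison (0 of 1, 1 and 4 tested in 2-cell embryos, morulae and blastocysts by limma), where 0% of all genes passed in 2-cell embryos, 4.23% were higher and 9.04% lower in morulae and 16.7% and 19.8% in blastocysts, so with this few tested the counts say little about the 4, and at an unadjusted p under 0.05 there was Jade1 in 2-cell embryos. Sfmbt2 passed as lower in KD blastocysts in 3 alternative fits. Sfmbt2, a polycomb protein needed in the trophoblast, measured 2.97, 9.25, 8.996 and 7.61 FPKM in control and 2.15, 4.14, 3.67 and 6.67 in KD blastocysts. Control replicate 1 lay among the KD libraries and the other 3 controls were above all KD libraries (log2 fold change -0.64, SE 0.30, adjusted p = 0.119). The adjusted p of Sfmbt2 was 0.0331 with the replicate block, 0.0273 with a covariate for the range of replicate numbers and 0.0201 without control replicate 1. In morulae it measured 0.942, 0.206, 0.174 and 1.21 in control and 0.800, 0.897 and 1.01 in KD libraries and was not tested. In 2-cell embryos it was at 0.0740, 0.227, 0.0309 and 0.0278 and 0.0426, 0.0624 and 0.0184, and among controls it rose by 2.22 (SE 0.29, adjusted p = 5.35e-05) into the blastocyst. Gab1, a docking protein of receptor tyrosine kinase signalling, measured 5.82, 4.20, 3.96 and 4.44 in control and 3.32, 3.58 and 4.59 in KD morulae, and 4.46, 5.61, 5.36 and 4.80 and 4.41, 4.45, 7.99 and 5.00 in blastocysts. The groups overlapped at both stages, with KD blastocyst replicate 5 above the rest (adjusted p = 0.698 and 0.794), and in 2-cell embryos Gab1 was at 0.418, 1.67, 1.34 and 0.957 and 0.764, 0.520 and 0.824. Jade1, a subunit of a histone acetyltransferase complex, measured 2.29, 2.00, 3.62 and 3.55 in control and 3.85, 6.29 and 4.28 in KD 2-cell embryos, where the KD libraries were above the controls without passing (log2 fold change 0.64, SE 0.22, adjusted p = 0.828). In blastocysts it measured 0.880, 3.71, 3.23 and 0.965 and 3.75, 3.43, 4.26 and 2.18, where control replicates 1 and 6 were low and the rest overlapped (log2 fold change 0.58, SE 0.29, adjusted p = 0.142), and in morulae 0.608, 0.423, 0.363 and 0.411 and 0.400, 0.469 and 1.45. Smoc1, a secreted calcium-binding protein, measured 1.14, 1.42, 1.57 and 1.18 in control and 0.625, 0.826, 1.47 and 1.30 in KD blastocysts, with overlap (log2 fold change -0.19, adjusted p = 0.366), and 0.523, 0.494, 0.403 and 0.395 and 0.399, 0.128 and 0.182 in morulae, where each KD library other than replicate 1 was below the controls. In 2-cell embryos Smoc1 was at 0 in every library but control replicate 2 (0.111).

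Gnas, the stimulatory G protein alpha subunit whose locus makes maternally and paternally expressed transcripts, measured 23.8, 18.6, 15.8 and 7.36 FPKM in control and 18.9, 11.3 and 11.1 in KD morulae, and 9.93, 11.4, 8.99 and 7.66 and 6.69, 10.9, 17.6 and 10.3 in blastocysts. The libraries spread widely within each group and the groups overlapped (adjusted p = 0.924 and 0.566). In 2-cell embryos Gnas was at 5.95, 7.42, 3.71 and 1.84 in control and 6.60, 3.21 and 4.01 in KD libraries (adjusted p = 0.974), and a gene-level FPKM cannot separate its transcripts. Inpp5f, a phosphoinositide phosphatase, measured 3.50, 4.08, 3.53 and 3.75 in control and 2.11, 3.08 and 3.18 in KD 2-cell embryos, with all KD libraries below the controls (log2 fold change -0.28, SE 0.19, adjusted p = 0.841). After division by the scaling factors, 1.10 for 2-cell control replicate 4 and 0.960 for 2-cell KD replicate 4, these groups overlapped. KD morula replicate 1 was at 3.19 while the other 2 KD morula libraries were under 1 FPKM. Zdbf2 stayed between 0.0889 and 1.02 in all libraries, and its blastocyst libraries were at 0.617, 0.305, 0.305 and 0.351 in control and 0.317, 0.157, 0.0889 and 0.183 in KD embryos, with overlap. Trappc9, a vesicle trafficking protein gene, and Peg13, a noncoding RNA within it, were at most 0.278 and 0.0932, and Nap1l5 at most 0.175, with 0 in every control library other than blastocyst control replicate 6.

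Between the control 2-cell embryo and the control morula, the span in which maternal RNA is lost and the embryonic genome takes over, most of all genes tested passed. Of 23 imprinted genes tested, 9 rose (39.1%) and 13 fell (56.5%), where 43% of 13655 genes were higher and 40.3% lower (median -0.64, all genes 0.10). The genes that rose, with their log2 fold changes, were Commd1 (2.35), Snrpn (2.11), Snurf (2.02), Impact (1.99), Sgce (1.72), Gnas (1.59), H13 (1.59), Igf2r (1.45) and Gab1 (1.43). Those that fell were Mest (-2.85), Asb4 (-2.83), Usp29 (-2.66), Phlda2 (-2.62), Zrsr1 (-2.37), Inpp5f (-1.40), Jade1 (-1.37), Meg3 (-1.20), Grb10 (-0.78), Blcap (-0.73), Cdkn1c (-0.65), Tssc4 (-0.64) and Nap1l4 (-0.49). Asb4, Grb10, Inpp5f, Jade1 and Meg3 met the filter only through the 2-cell libraries and Sgce only through the morula libraries, and without such genes 8 rose and 8 fell of 17 (all genes 45.6% higher and 30.9% lower). Sgce went from at most 0.126 FPKM in control 2-cell libraries to at least 2.27 in control morulae, and Asb4 from at least 5.71 to at most 0.239. Mcts2 was the only tested member that did not pass (log2 fold change 0.07, adjusted p = 0.725). By kind, 3 of 11 maternally expressed genes rose and 8 fell, and 5 of 11 paternally expressed genes rose and 5 fell. The adjusted p of Nap1l4 was 0.0515 without morula control replicate 1 and 0.107 without morula control replicate 2. That of Tssc4 was 0.0513 without 2-cell control replicate 4, 0.0737 without 2-cell control replicate 5, 0.0698 without morula control replicate 2, 0.106 without morula control replicate 7 and 0.0844 without morula control replicate 8, 0.0761 with no filter and 0.0581 with FPKM as deposited. With the replicate block Tssc4 (adjusted p = 0.749) and Cdkn1c (0.293) did not pass.

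From control morula to control blastocyst 5 of 19 imprinted genes tested rose (26.3%) and 6 fell (31.6%), where 27.6% of 11849 genes were higher and 28.8% lower (median -0.07, all genes -0.02). The risers were Cd81 (2.87), Sfmbt2 (2.22), Mest (2.18), Commd1 (1.41) and Smoc1 (0.63), and the genes that fell were Igf2r (-1.63), Sgce (-1.16), Gnas (-0.71), Blcap (-0.56), Snrpn (-0.48) and Snurf (-0.40). Cd81 and Smoc1 met the filter only through the blastocyst libraries, and without such genes 3 rose and 6 fell of 17 (all genes 24.1% higher and 27.6% lower). Blcap, Gnas and Snurf rested on single libraries. The adjusted p of Blcap was 0.0558 without morula control replicate 2, 0.0571 without morula control replicate 8, 0.0734 without blastocyst control replicate 1 and 0.0824 without blastocyst control replicate 6, that of Gnas 0.105 without morula control replicate 1, 0.0982 without morula control replicate 2, 0.0714 without morula control replicate 7, 0.0818 without blastocyst control replicate 5 and 0.103 without blastocyst control replicate 6, and that of Snurf 0.0921 without morula control replicate 2, 0.0693 without morula control replicate 7, 0.0906 without morula control replicate 8, 0.102 without blastocyst control replicate 1 and 0.114 without blastocyst control replicate 6. With FPKM as deposited none of those 3 passed (adjusted p = 0.0782 for Blcap, 0.0826 for Gnas and 0.119 for Snurf), nor with no filter. The 4 control morula libraries serve in both stage comparisons and the control libraries also in the KD comparisons, so these are not independent of each other.

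Of 28 factors that maintain or erase imprints, such as the zinc finger protein Zfp57, its partner Trim28 and the DNA methyltransferases, 25 were tested in 2-cell embryos and 0 passed in limma, as for all genes there. Zfp57, which binds methylated imprinting control regions, measured 3.43, 5.13, 4.24 and 4.29 FPKM in control and 4.11, 6.84 and 5.22 in KD morulae, and 4.003, 11.9, 11.02 and 6.12 and 5.29, 6.67, 8.03 and 8.86 in blastocysts, with overlap at both stages (adjusted p = 0.261 and 0.837). In morulae 1 of 21 tested rose, Arid4a, where 4.23% of all genes were higher (median 0.23, all genes 0.02; adjusted p = 0.0486), and that call held in 1 of the 7 fits without 1 library, the one without control replicate 7, and not with a pseudocount of 0.1, no filter or FPKM as deposited (adjusted p = 0.0584, 0.175 and 0.0624). In blastocysts 4 of 24 rose and 1 fell, where 16.7% of all genes were higher and 19.8% lower, so the count that rose was at the share of all genes (median 0.16, all genes 0.00). Dnmt3l, the cofactor of de novo methylation, rose (log2 fold change 0.95, SE 0.19, adjusted p = 0.00217) and passed without any 1 library. It measured 25.5, 28.5, 31.8 and 35.1 in control and 75.6, 56.9, 50.0 and 54.4 in KD blastocysts. The corepressor Trim28 (0.60, adjusted p = 0.0309), the methyltransferases Ehmt2 (0.64, 0.0312) and Ezh2 (0.42, 0.0496) rose and Dnmt3b fell (-0.53, 0.0409). Leaving out 1 library ended each of these 4 calls: for Ezh2 any of the 8, for Trim28 any other than KD replicate 4, for Ehmt2 control replicates 1, 4 and 6 and KD replicates 5 and 6, and for Dnmt3b control replicates 4, 5 and 6 and KD replicates 1, 4 and 6, with adjusted p up to 0.151, 0.0716, 0.0750 and 0.116. FPKM as deposited ended the same 4, no filter ended those of Trim28, Ehmt2 and Dnmt3b, and limma without a trend or the replicate block ended that of Ezh2.

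Of 38 further imprinted genes, 36 were in the table, and 8, 10 and 12 were tested in 2-cell embryos, morulae and blastocysts. In 2-cell embryos 0 passed in limma, in morulae 1 rose, where 4.23% of all genes were higher, and in blastocysts 2 rose and 2 fell, where 16.7% were higher and 19.8% lower (medians -0.07, 0.08 and 0.29). Slc38a4, a paternally expressed amino acid transporter imprinted through H3K27me3, measured 16.9, 22.6, 21.1 and 14.9 FPKM in control and 3.90, 7.01, 6.72 and 5.18 in KD blastocysts. All KD libraries were below all controls, and it fell by 1.57 (SE 0.20, adjusted p = 0.000122). Copg2, a coat protein gene opposite Mest, fell by 0.73 (SE 0.16, adjusted p = 0.00382), and Rasgrf1 (0.88, adjusted p = 0.00638) and Tnfrsf23 (0.83, adjusted p = 0.00509), a neighbour of the distal chromosome 7 domain, rose. Rasgrf1 measured 0.00815, 0.127, 0.134 and 0.139 FPKM in control and 1.54, 1.21, 0.271 and 1.29 in KD blastocysts and met the filter only through 3 KD libraries, so without KD replicate 1, 4 or 6 it was not tested, and with no filter its adjusted p was 0.0483. The calls of Slc38a4, Copg2 and Tnfrsf23 passed in each fit without 1 library. In morulae Pon2 rose (0.73, adjusted p = 0.0342), and that adjusted p was 0.0522 without morula control replicate 1, 0.0790 without morula control replicate 2, 0.0675 without morula control replicate 7, 0.127 without morula KD replicate 2 and 0.0948 without morula KD replicate 6, and 0.135 with no filter. Of 9 hosts and source genes of the retrogenes and noncoding members, Mcts1 fell in morulae of 6 tested, and in blastocysts Mcts1 and Commd1 fell and Blcap and Igf2r rose of 6. Of all genes 9.04% were lower in KD morulae, and Commd1, Blcap and Igf2r are already counted among the 48.

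Promoters of the imprinted genes were read from RefSeq sequences of GRCm38.p6, of which 38 of the 48 genes had at least 1, with 59 different windows of the 250 bases upstream of a start. The genes without an entry were H19, Nap1l4, Cdkn1c, Sgce, Trappc9, Peg10, Smoc1, Rtl1, Peg13 and Impact. The 59 windows held a median of 12 CG dinucleotides, against 6 in 32851 promoter windows of the same length. The letters TGCCGC, the core that Zfp57 is known to bind when methylated, were searched on both strands (TGCCGC or GCGGCA) and were present in 8 of the 59 windows (13.6%), against 2850 of the 32851 (8.68%), with no test made. The windows of a gene can overlap, and 2 of the 8 are windows of Mest that start 3 bases apart and hold the same 2 matches, so the letters were found at 7 genes. The windows with the letters belonged to Zdbf2, Mcts2, Mest, Nap1l5, Zim1, Plagl1 and Meg3. A match is a description of the sequence and no evidence of binding. Shown are the 3 genes of the distal chromosome 7 domain that rose and have an entry, Cd81 (chr7:143052500-143052749, plus strand, 16 CG), Tssc4 (chr7:143069118-143069367, plus strand, 17 CG) and Phlda2 (chr7:143502525-143502774, minus strand, 21 CG), none of which holds the letters, and Mcts2 (chr2:152686898-152687147, plus strand, 20 CG), the retrogene that fell, whose 1 match is in capitals. Each is written 5′ to 3′.
Cd81: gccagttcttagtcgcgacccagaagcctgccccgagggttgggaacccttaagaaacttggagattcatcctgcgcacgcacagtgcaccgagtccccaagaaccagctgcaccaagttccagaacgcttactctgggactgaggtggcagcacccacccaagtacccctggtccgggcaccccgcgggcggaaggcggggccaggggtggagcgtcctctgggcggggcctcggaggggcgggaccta
Tssc4: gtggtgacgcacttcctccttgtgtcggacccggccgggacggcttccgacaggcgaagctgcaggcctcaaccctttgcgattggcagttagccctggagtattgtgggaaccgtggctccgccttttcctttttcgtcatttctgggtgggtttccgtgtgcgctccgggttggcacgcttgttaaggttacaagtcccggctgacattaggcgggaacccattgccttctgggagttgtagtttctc
Phlda2: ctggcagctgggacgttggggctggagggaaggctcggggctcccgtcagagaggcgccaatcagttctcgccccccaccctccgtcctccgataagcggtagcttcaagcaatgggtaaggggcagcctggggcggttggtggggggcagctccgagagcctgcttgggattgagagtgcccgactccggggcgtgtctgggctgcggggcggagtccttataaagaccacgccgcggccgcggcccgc
Mcts2: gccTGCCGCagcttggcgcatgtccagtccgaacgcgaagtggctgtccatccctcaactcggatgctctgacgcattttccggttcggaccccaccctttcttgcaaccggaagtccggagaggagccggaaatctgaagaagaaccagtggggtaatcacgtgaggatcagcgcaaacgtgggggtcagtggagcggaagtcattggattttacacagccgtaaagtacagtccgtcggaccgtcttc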

How the data were processed

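The authors deposited 1 table of FPKM per gene for all 22 libraries. By the submitters' processing notes, reads were aligned with STAR to mm10 (GRCm38) and FPKM came from StringTie 2.1.4. Each library was put in its group by its title, with no column left over. The table gives no read totals, so depth per library is unknown and no counting interval was computed. FPKM of each comparison were divided by a median-of-ratios factor (0.960 to 1.10 in 2-cell embryos, 0.930 to 1.19 in morulae, 0.908 to 1.13 in blastocysts) and log2-transformed after adding a pseudocount of 1. Genes with FPKM 1 or higher in 3 or more libraries of a comparison were fitted with limma 3.58.1 in R 4.3.3 (lmFit, and eBayes with a trend), and p was adjusted by Benjamini-Hochberg over all genes tested. KD was compared with control at each stage, controls were compared between successive stages, and 1 interaction term compared the KD effect of blastocysts with that of morulae. The procedure was tested on simulated data, and no result given here rests on that.

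Alternatives were a pseudocount of 0.1, no filter on low FPKM, FPKM as deposited, limma without a trend, the replicate number as a replicate block, the range of replicate numbers as a covariate, and leaving out each library, for the interaction chosen after seeing the data. Counts without genes that reached FPKM 1 in only 1 of the 2 groups were also added after seeing the data. DEGs and a set of well-known imprinted genes were given in every library, and other genes that passed by their values and fold change. The members and the lists (imprint maintenance and erasure, further imprinted genes, hosts and source genes, markers of trophectoderm, epiblast, primitive endoderm, 2-cell embryos, oocytes, cumulus and granulosa cells) were chosen with earlier results of these data known. Positions, exon overlaps and shared 75-base stretches were read from the annotation and transcripts of the mouse reference and promoter windows from RefSeq, with Python 3.11.15, numpy 2.4.6 and pandas 2.3.3, and figures were drawn with matplotlib 3.10.9.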

Additional observations from a re-analysis of the deposited data

Results flagged for a closer look

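In 89 groups of 4 libraries of the named genes the highest or lowest library was compared with the others, and in 8 its gap to the nearest, as a share of the range, was above the critical value of Dixon's test. In 4 of the 8 the other 3 libraries were at 0, which fixes the gap as the whole range at any value above 0. In the other 85 groups there were 4, where chance gives about 1 in 20. Peg3 was at 0.458 FPKM in morula control replicate 1, above 0.113 and lower in the others. Peg10 was at 0.00717 there and at 0 in the other 3 control morula libraries. Mest was at 15.8 and Gab1 at 7.99 in blastocyst KD replicate 5, above the next libraries at 6.33 and 5.00, and Dlk1 was at 0.0158 in the same library and at 0 in the other 3. Meg3 was at 0.994 in 2-cell control replicate 5, below 1.47 and higher in the others. Dlk1 was at 0.0230 in 2-cell control replicate 1 and Smoc1 at 0.111 in 2-cell control replicate 2, with the other 3 libraries at 0. For Commd1 the KD effect differed between blastocysts and morulae by -1.11 on the log2 scale in the limma interaction test (adjusted p = 0.0226), which did not pass without morula KD replicate 1 (adjusted p = 0.0573) or 6 (0.0666).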

How the results depend on the processing

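Of 1033 refits of 79 single-gene log2 fold changes that passed, 886 still passed, 147 no longer did, and none changed direction. The 79 include H2afz, markers and other listed genes beside the imprinted genes, and changes between control stages. Refits in which a gene no longer met the filter are not counted, as for Cd81 in morulae without any 1 KD library. With no filter on low FPKM, which tests more genes, 1 of 44 imprinted genes was higher in KD morulae (all genes 0.392%) in place of 5 of 19. In control blastocysts against control morulae 8 of 47 were higher (17.0%, all genes 11.9%) in place of 5 of 19 (26.3%, all genes 27.6%). Among all genes 129 were higher and 283 lower in KD morulae in place of 465 and 993, and 8962 were lower in control morulae against 2-cell embryos. With FPKM as deposited 6 of 19 imprinted genes were higher (31.6%, all genes 30.3%) and 3 lower (15.8%, all genes 25.0%) in control blastocysts against control morulae. In that setting 281 genes of all were higher and 1553 lower in KD morulae. The interaction was passed there by 2 of 24 imprinted genes, where 12.5% of all genes passed. The range of replicate numbers as a covariate gave 777 higher genes in KD morulae. Counts without genes that met the filter through 1 group alone were added after seeing the data. Of these, 8 of 17 imprinted genes and 2967 of all (30.9%) were lower in control morulae against 2-cell embryos. In control blastocysts against control morulae 3 of 17 imprinted genes were higher (17.6%, all genes 24.1%). The cause was not tested.

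Without 1 library, which leaves fewer samples, 1 to 4 imprinted genes were higher in KD morulae (1.30% to 5.22% of all genes). In KD blastocysts 1 to 3 were lower (16.4% to 19.5% of all genes). In control blastocysts against control morulae 3 to 6 were lower (25.6% to 28.3% of all genes). The interaction was passed by 0 to 2 (7.62% to 13.7% of all genes). Among all genes 0 to 3 were lower in KD 2-cell embryos, and 140 to 558 were higher and 411 to 1186 lower in KD morulae.

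With the replicate block 0 imprinted genes were higher and 0 lower in KD 2-cell embryos (all genes 0% and 0%). In KD morulae 3 were higher and 0 lower (all genes 5.87% and 8.91%), with Snrpn at adjusted p = 0.0733 and Snurf at 0.0575. In KD blastocysts 6 were higher and 3 lower, with Sfmbt2 added (all genes 17.8% and 20.8%). In control morulae against 2-cell embryos 9 were higher and 11 lower (all genes 40.9% and 38.5%), with Cdkn1c at 0.293 and Tssc4 at 0.749. Control blastocysts and morulae share only replicate number 1, so no block was fitted there. Across genes, control and KD libraries of the same number deviated from their group means with r of 0.209, 0.0146 and 0.214 in 2-cell embryos, 0.181 and 0.0944 in morulae and 0.0860, -0.111, 0.354 and 0.00149 in blastocysts, and not every library correlated best with its own number, so the numbers were not read as pairs. Libraries of like ranges of numbers did deviate together in morulae, where r was 0.0944 to 0.347 between control replicates 1 and 2 and KD replicates 1 and 2 and between control replicates 7 and 8 and KD replicate 6, and -0.278 to -0.0945 between the ranges. In 2-cell embryos, with replicates 1 and 2 against 4 and 5, r was -0.0211 to 0.214 within and -0.237 to 0.0103 between ranges, and in blastocysts, with replicate 1 against 4 to 6, -0.342 to 0.354 and -0.381 to 0.401. Both ranges occur in KD and control libraries of each stage. With the range as a covariate 5 imprinted genes were higher in KD morulae (7.07% of all genes). In KD blastocysts 6 were then higher (27.3%, all genes 17.5%) and 3 lower (13.6%, all genes 20.7%). The labels name no batch, and its part was not tested. Genes are not independent replicates.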
